A study of Homo sapiens with 4 samples.

Results

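The genes of the proteasome and of the immunoproteasome were examined in MV4-11, a human acute myeloid leukemia cell line of monocytic type, with and without knockdown of CEBPG. They were taken by symbol: PSMA, PSMB, PSMC, PSMD, PSME, PSMF or PSMG followed by a number, with or without the ending IP, and the maturation factor POMP. The rule found 48 of the 16490 genes, and all 48 were among the 12142 genes tested. The rule also took PSMC3IP, a cofactor of meiotic recombination that shares only its name with a subunit. PSMC3IP stays in the counts and medians of the 48 members, and its values are described apart. PSMA8 and PSMB11, the subunits of testis and of thymus, matched no row and were not analysed here.

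RNA-seq had been performed on 4 libraries. In 2 of them the cells carried the control hairpin sh-NC, and in 2 they carried sh-CEBPG#3, a hairpin against CEBPG. CEBPG is a bZIP transcription factor of the C/EBP family. Both kinds of cells held a pLKO.1 lentiviral vector and had been selected with puromycin, no other treatment was given by the labels, and a single hairpin was sequenced. Whether libraries with the same hairpin go back to different infections is not in the labels, so the p-values measure the spread between libraries, which may be technical.

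The values were FPKM (fragments scaled to transcript length and to the mapped fragments of the library), a scale on which levels of different genes can be compared per length, and the number of reads behind a value is not known. CEBPG itself was at 30.4 and 33.6 FPKM under sh-NC and at 19.2 and 17.1 FPKM under sh-CEBPG#3, 56.8% of the control mean. Libraries of a group correlated at 0.9934 (sh-NC) and 0.9936 (sh-CEBPG#3), and libraries of different groups at 0.9624 to 0.9639. The 8 myeloid and leukemia markers looked at were present at 3.29 to 3126 FPKM, while COL1A1 of fibroblasts lay between 0.0128 and 0.0781 FPKM. Some of the myeloid markers differed between the groups: LYZ, the lysozyme of monocytes, was at 567 and 610 FPKM in sh-NC against 3126 and 2982 FPKM in sh-CEBPG#3, and MEIS1, a stem cell factor of leukemia, was at 6.65 and 7.34 against 3.42 and 3.29 FPKM. Their part in the results below was not tested.

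The proteasome is the protease that degrades proteins tagged with ubiquitin. Its 20S core is a barrel of alpha rings on the outside and beta rings on the inside, and the beta rings carry the cutting sites in PSMB5, PSMB6 and PSMB7. A 19S cap of ATPases and lid subunits recognizes, unfolds and feeds in the substrate. In blood cells and after interferon-gamma, newly built cores can take up PSMB8, PSMB9 and PSMB10 in place of PSMB5, PSMB6 and PSMB7. This immunoproteasome, often together with the PA28 ring of PSME1 and PSME2, cuts peptides that are well suited to presentation on MHC class I.

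Upon CEBPG knockdown most proteasome genes differed little from the control. Of the 48 members, 11 were higher at an adjusted p under 0.05 (limma on log2(FPKM + 1)), which is 22.9% of them, while 18.5% of all genes tested were higher. Only 3 members, or 6.25%, were lower, where 23.8% of all genes tested were lower. The members that rose were PSME1, PSMB9, PSMD5, PSMB5, PSMC2, PSME2, PSMB2, PSME4, PSMD2, PSMD8 and PSMA1, and those that fell were PSMC3IP, PSMG1 and PSMA7. The changes were small: the median log2 fold change was 0.093 over the 48 members and -0.038 over all genes tested. None of the 48 passed the threshold of the study (an unadjusted p under 0.05 with an absolute log2 fold change above 1). Of all genes tested 3.41% passed it in either direction. The study applied its threshold to DESeq2 results, and here it was applied to limma on log2(FPKM + 1). Which members the study itself called is therefore not known from these values. An unadjusted p under 0.05 was reached by 20 members (41.7%) and by 50.6% of all genes tested. In bulk RNA a change in the cells present and a change in RNA per cell cannot be told apart.

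The split between rises and falls moved with the scaling. With the 4 libraries set to equal totals, 14 members were higher and 8 lower (29.2% and 16.7%, against 19.3% and 28.8% of all genes), and with quantile normalization 16 were higher and 7 lower (33.3% and 14.6%, against 22.2% and 25.2%). The sh-NC libraries also differed between themselves in these genes. The second sh-NC library was above the first in 45 of the 48 members, by a median of 0.13 on the log2 scale, whereas in the sh-CEBPG#3 group the second library was above the first in 17, with a median difference of -0.03. Without the first sh-NC library 4 members were higher and 7 lower (8.33% and 14.6%, against 16.1% and 25.1% of all genes), and without the second 15 were higher and 3 lower (31.2% and 6.25%, against 19.8% and 19.8%). Leaving out the first or the second sh-CEBPG#3 library left 3 or 2 members higher (6.25% against 12.7% of all genes, and 4.17% against 15.9%). The share of members that rose was thus above that of all genes in the main setting and with either change of scaling. It was below that of all genes without the first sh-NC library or without either sh-CEBPG#3 library. With all 4 libraries it was also below with no filter on low values (8.33% against 11.3%) and with the most abundant transcript of each gene (4.17% against 11.1%). The same held in limma without a variance trend (8.33% against 17.3%) and with a block for the replicate number (8.33% against 17.2%). The share that fell was below that of all genes in the main setting and in all 13 alternatives. The calls of PSMA1, PSMB2, PSMD2, PSMD8 and PSME4 were lost without the first sh-NC library and without either sh-CEBPG#3 library, with adjusted p-values of up to 0.305, 0.251, 0.225, 0.286 and 0.223, and PSME4 also lost its call without the second sh-NC library.

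**Figure D1:**
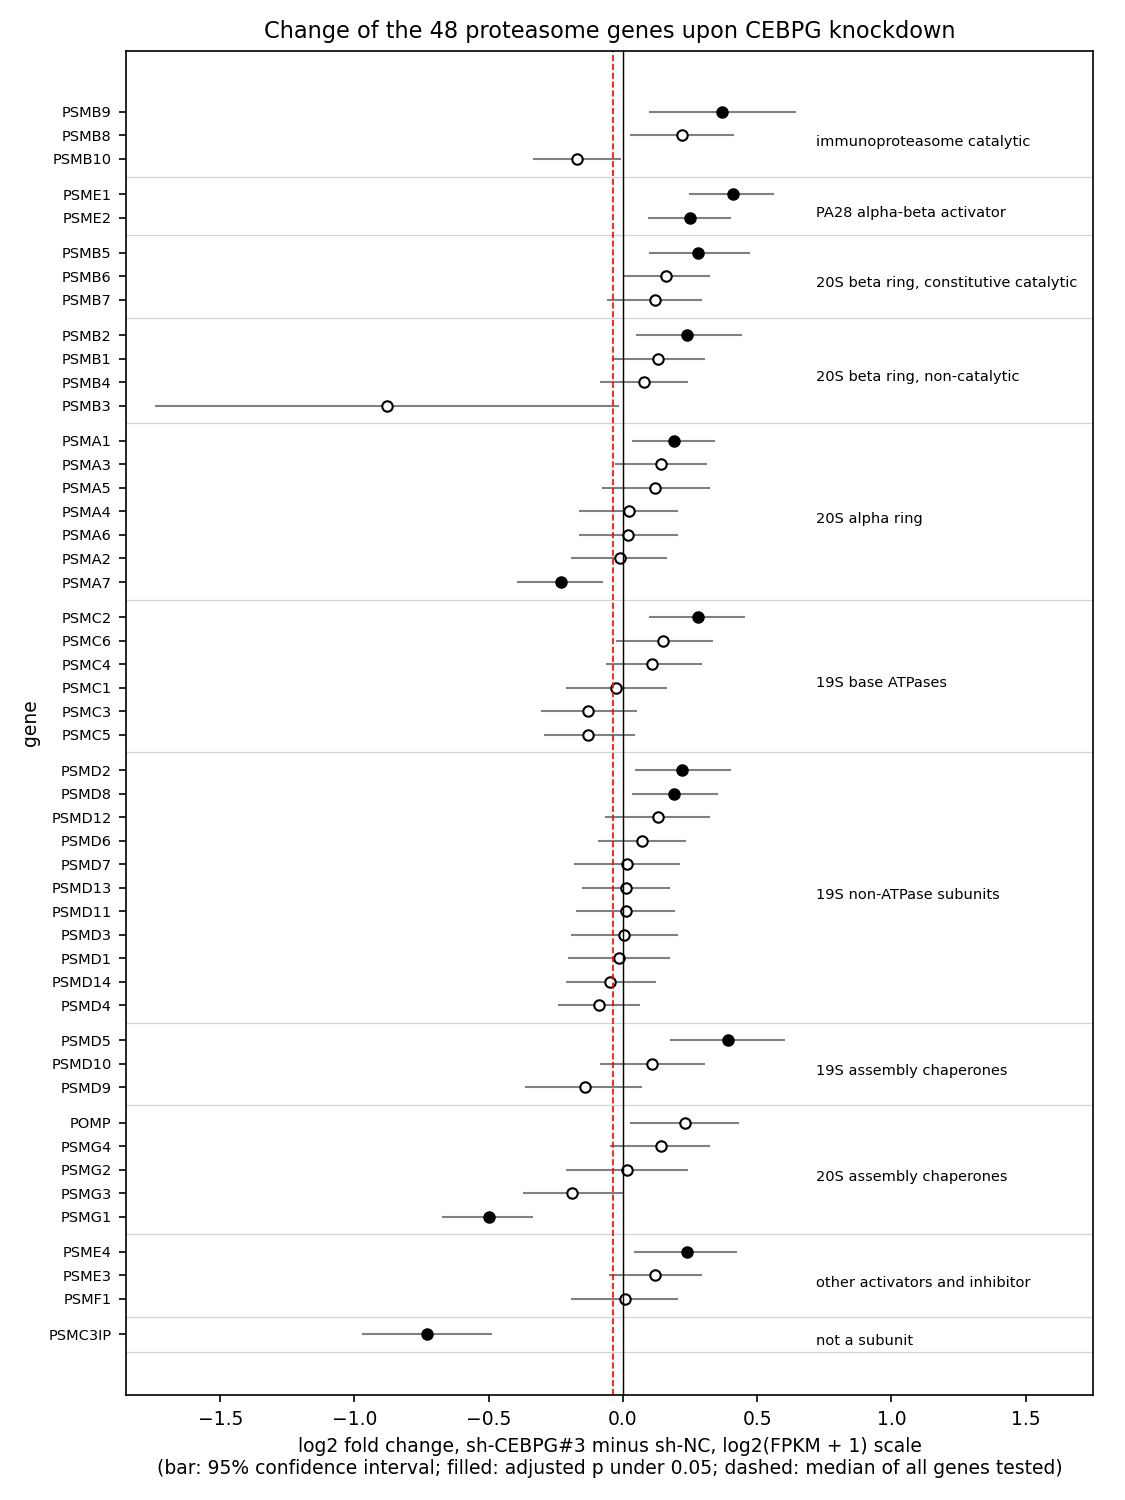
Log2 fold change (sh-CEBPG#3 minus sh-NC, log2(FPKM + 1) scale) of each of the 48 genes, grouped by role, with its 95% confidence interval from limma; filled points had an adjusted p under 0.05, and the dashed line is the median of all genes tested (-0.038). PSME1 (0.41) lies highest, PSMB3 (-0.88) has the widest interval, and most points lie within 0.3 of 0.

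Both libraries of one group lay above both of the other in 36 of the 48 members. The same held for 8711 of the 12142 genes tested, a similar share. The sh-CEBPG#3 libraries were above the sh-NC libraries in 26 members (54.2%), against 31.5% of all genes tested, and below them in 10 members (20.8%), against 40.2% of all genes tested. In the remaining 12 members the groups overlapped.

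Of the PA28 genes, PSME1 showed the clearer increase. PSME1, the alpha subunit of the ring, was at 90.4 and 96.4 FPKM under sh-NC and at 125 and 123 FPKM under sh-CEBPG#3. Both knockdown libraries were above both controls, with means of 93.4 ± 4.27 and 124 ± 1.13 FPKM (SD, n = 2 each). The log2 fold change was 0.41 (95% confidence interval 0.25 to 0.56, limma adjusted p = 0.00123), the largest of the 48 genes in the main setting. With 0.1 or 0.01 in place of 1 added to each FPKM, PSMB9 (0.44 or 0.45) and PSMD5 (0.42) lay above PSME1 (0.41). With quantile normalization both stood at 0.42, against 0.32 for PSME1. PSMB5 (0.95) was above PSME1 (0.42) with the most abundant transcript. PSMB9 was above PSME1 without the second sh-NC library (0.52 against 0.45) or the first sh-CEBPG#3 library (0.47 against 0.40). PSMD5 was above PSME1 without the second sh-CEBPG#3 library (0.51 against 0.42). PSME1 was also called higher in all 13 alternative settings, with adjusted p-values between 1.85e-07 and 0.0239.

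PSME2, the beta subunit that alternates with PSME1 in the ring, was at 104 and 107 FPKM under sh-NC and at 124 and 125 FPKM under sh-CEBPG#3. It rose by 0.25 (95% confidence interval 0.096 to 0.40, adjusted p = 0.0145). The adjusted p in limma was 0.0506 without a variance trend and 0.0933 with a block for the replicate number. Without the first or the second sh-CEBPG#3 library the log2 fold change was 0.25 or 0.24, and the call was lost. The ratio of PSME1 to PSME2 was 0.872 and 0.904 under sh-NC and 1 and 0.983 under sh-CEBPG#3, so that the messages of both subunits came close to parity. An exact permutation test over 2 against 2 libraries gave 0.333, the smallest two-sided p it can give.

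The catalytic immunoproteasome subunits did not move together. PSMB9 (also called LMP2 or beta1i) was the least abundant of them, at 3.85 and 4.93 FPKM under sh-NC and 5.48 and 6.43 FPKM under sh-CEBPG#3. The groups did not overlap, and PSMB9 rose by 0.37 (95% confidence interval 0.10 to 0.64, adjusted p = 0.031). The call depended on single libraries: without the first sh-NC library the log2 fold change was 0.23 (adjusted p = 0.183), and without the second sh-CEBPG#3 library it was 0.27 (adjusted p = 0.159). It also missed the threshold with equal totals (adjusted p = 0.054), with no filter on low values (0.127) and with the most abundant transcript of each gene (0.13).

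PSMB8 (LMP7 or beta5i) was at 10.1 and 11.1 FPKM under sh-NC and at 12.4 and 12.5 FPKM under sh-CEBPG#3. Its log2 fold change of 0.22 (95% confidence interval 0.029 to 0.41) did not pass the adjusted threshold (adjusted p = 0.0627), and it did pass with quantile normalization (0.0154), with equal totals (0.0326) and without the second sh-NC library (0.0434). PSMB8 shares 594 bases with the antisense gene PSMB8-AS1, and whether the fragments were counted by strand is not given in the sources used here, so the reads of the 2 genes may not have been told apart.

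PSMB10 (MECL-1 or beta2i) was the most abundant of the 3 and the one with the opposite sign. It was at 76.3 and 82 FPKM under sh-NC and at 71 and 69.4 FPKM under sh-CEBPG#3, with both knockdown libraries below both controls. The log2 fold change was -0.17 (95% confidence interval -0.33 to -0.0093, adjusted p = 0.0835). The sign held in all 13 alternative settings, and the gene passed the threshold with quantile normalization (-0.20, adjusted p = 0.0045), with equal totals (-0.20, adjusted p = 0.00523) and without the first sh-NC library (-0.22, adjusted p = 0.0239).

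**Figure D2:**
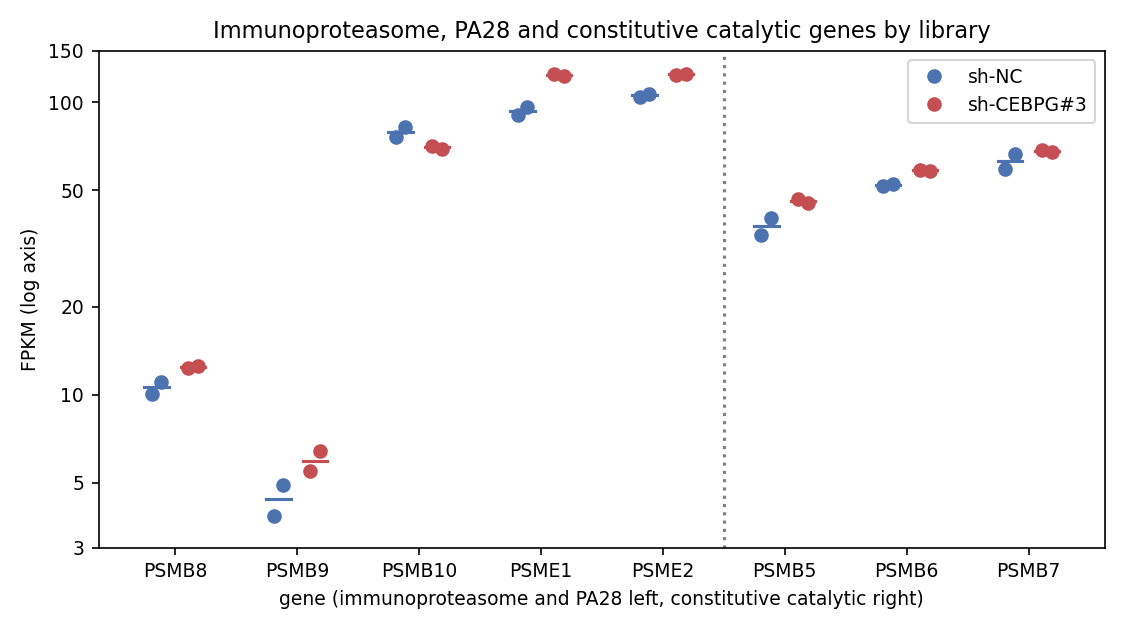
FPKM (log axis) of the immunoproteasome and PA28 genes and of the 3 constitutive catalytic genes in each library; points are single libraries and short lines the mean of 2. The sh-CEBPG#3 points lie above the sh-NC points for PSMB8, PSMB9, PSME1, PSME2, PSMB5, PSMB6 and PSMB7, and below them for PSMB10.

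The catalytic subunits that these replace rose or did not pass the test. PSMB5, which carries the chymotrypsin-like site, was at 35.1 and 40.2 FPKM under sh-NC and at 46.8 and 45.2 FPKM under sh-CEBPG#3, a log2 fold change of 0.28 (95% confidence interval 0.099 to 0.47, adjusted p = 0.0195). The call was lost without the first sh-NC library (0.19, adjusted p = 0.0791) and without either sh-CEBPG#3 library (adjusted p = 0.121 and 0.0714). PSMB6, which carries the caspase-like site, was at 51.8 and 52.7 against 58.9 and 58.1 FPKM (log2 fold change 0.16, adjusted p = 0.0864). PSMB7, with the trypsin-like site, was at 59.2 and 66.6 against 68.9 and 67.6 FPKM (log2 fold change 0.12, adjusted p = 0.248). In all 3 genes both sh-CEBPG#3 libraries were above both sh-NC libraries.

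For each catalytic position the ratio of the immunoproteasome subunit to the subunit it replaces was then taken within each library. The ratio of PSMB8 to PSMB5 was 0.288 and 0.276 under sh-NC and 0.266 and 0.277 under sh-CEBPG#3, so the groups overlapped. The difference of the log2 ratios was -0.054 (exact permutation p = 0.667, two-sided). The ratio of PSMB9 to PSMB6 was 0.0744 and 0.0936 against 0.093 and 0.111, again overlapping, with a difference of 0.28 (exact permutation p = 0.667) that was 0.12 without the first and 0.45 without the second sh-NC library, and 0.41 without the first and 0.16 without the second sh-CEBPG#3 library. PSMB10 to PSMB7 was the single pair whose groups did not overlap: the ratio was 1.29 and 1.23 in sh-NC and 1.03 and 1.03 in sh-CEBPG#3, a difference of -0.29 on the log2 scale (exact permutation p = 0.333, the smallest possible). Between 0.26 and 0.33 was lost on the log2 scale whichever library was left out.

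Summed over the 3 positions, PSMB8, PSMB9 and PSMB10 made up 38.2% and 38.1% of the catalytic messages under sh-NC and 33.7% and 34.1% under sh-CEBPG#3. PSMB10 alone held 84.5% and 83.7% of the immunoproteasome part in sh-NC and 79.9% and 78.5% in sh-CEBPG#3. The share of immunoproteasome catalytic messages was thus lower in both knockdown libraries, although PSMB9 rose. These are shares of mRNA, and the makeup of assembled proteasomes was not measured.

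**Figure D3:**
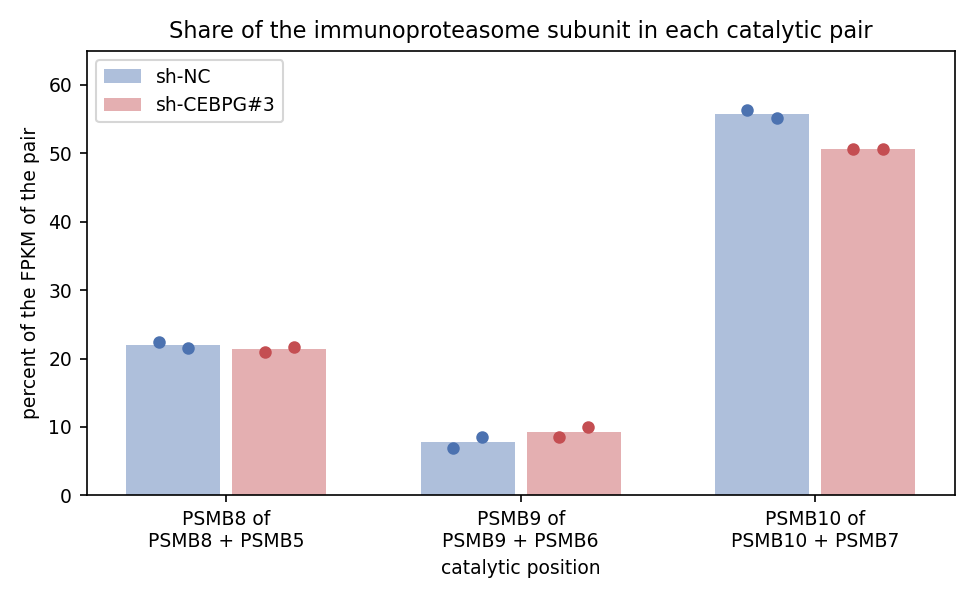
Percent of the summed FPKM of each catalytic pair that came from the immunoproteasome subunit; bars are means of 2 libraries and points single libraries. The points of the groups overlap for PSMB8 and PSMB9, while for PSMB10 they lie at 56.3% and 55.2% in sh-NC and at 50.7% and 50.6% in sh-CEBPG#3.

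The 5 genes PSMB8, PSMB9, PSMB10, PSME1 and PSME2 were compared with the 31 constitutive subunits of the core and the cap. The median log2 fold change was 0.25 for the 5 genes and 0.072 for the constitutive subunits. Of the 5 genes 3 were higher and none lower, and of the 31 constitutive subunits 6 were higher and 1 lower. The shares over all genes tested were 18.5% higher and 23.8% lower. All 5 genes had an unadjusted p under 0.05 in limma, PSMB10 with a negative change, as did 50.6% of all genes in either direction. With all 4 libraries PSME1 and PSMB9 had larger log2 fold changes than any of the 31 constitutive subunits. For PSMB9 this did not hold without the first sh-NC library (0.23, against 0.28 for PSMC2) or without the second sh-CEBPG#3 library (0.27, against 0.31 for PSMB5), and with the most abundant transcript PSMB5 (0.95) was above both PSME1 (0.42) and PSMB9 (0.37). PSME2 lay above 29 of them and PSMB8 above 27, while PSMB10 lay below 29. By main-setting log2 fold change the 5 genes stood at places 1 (PSME1), 3 (PSMB9), 6 (PSME2), 11 (PSMB8) and 43 (PSMB10) of 48. The median of the 5 genes was between 0.22 and 0.28 in every alternative setting, and that of the constitutive subunits between 0.019 and 0.12.

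Promoter sequences are shown for the 4 members that carried the same form of the interferon-stimulated response element core next to the start, and for PSMB9, which rose without it. Sequences were taken from RefSeq (GRCh38.p14) and matched 42 of the 48 members. PSMA7, PSMB1, PSMB6, PSMB7, PSMD4 and PSMG3 had no entry. Each window runs 5′ to 3′ on the strand of the gene, from 100 bases before the start to 30 after it, and capitals mark the core, GAAANNGAAA or on the other strand TTTCNNTTTC. The windows are chr14:24136094-24136223 on the plus strand for PSME1, chr14:24146581-24146710 on the minus strand for PSME2, chr16:67936821-67936950 on the minus strand for PSMB10, chr6:32854092-32854221 on the plus strand for PSMB9 and chr6:3258847-3258976 on the plus strand for PSMG4.
PSME1: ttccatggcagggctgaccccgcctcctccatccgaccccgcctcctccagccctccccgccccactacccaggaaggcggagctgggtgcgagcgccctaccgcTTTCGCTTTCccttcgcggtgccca
PSME2: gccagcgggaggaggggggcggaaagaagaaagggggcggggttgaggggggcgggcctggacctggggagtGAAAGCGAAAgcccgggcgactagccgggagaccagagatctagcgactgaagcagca
PSMB10: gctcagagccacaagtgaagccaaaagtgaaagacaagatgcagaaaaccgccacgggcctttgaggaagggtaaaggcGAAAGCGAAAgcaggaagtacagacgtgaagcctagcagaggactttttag
PSMG4: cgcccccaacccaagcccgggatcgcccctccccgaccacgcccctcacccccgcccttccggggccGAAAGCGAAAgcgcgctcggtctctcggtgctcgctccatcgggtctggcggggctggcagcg
PSMB9: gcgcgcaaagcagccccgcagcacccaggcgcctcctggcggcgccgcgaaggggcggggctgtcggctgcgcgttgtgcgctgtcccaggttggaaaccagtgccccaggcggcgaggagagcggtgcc

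The same 10 letters, GAAAGCGAAA, lay close before the start of PSME2 (bases -28 to -19), PSMB10 (-21 to -12) and PSMG4 (-33 to -24), and on the other strand just after the start of PSME1 (bases 6 to 15). Of these genes PSME1 and PSME2 rose, PSMB10 had a negative log2 fold change and PSMG4, an assembly chaperone, was at 18.4 and 19.7 against 21.8 and 20.3 FPKM (log2 fold change 0.14, adjusted p = 0.204). In the full window of 250 bases before and 50 after the start, the core was found in 6 of the 42 member promoters (14.3%) and in 996 of all 27305 promoters (3.65%). The others were PSMB4 (bases -68 to -59) and PSMA4 (-240 to -231). The start used for PSMG4 lies inside the gene, which runs from 3254404 to 3268049 on chromosome 6. A match is a description of letters and not a bound site.

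Other short motifs were searched in the same windows on both strands. The gamma-activated site core, TTCNNNGAA, was in 4 member promoters (9.52%, against 7.88% of all promoters), namely PSMA2, PSMC4, PSMD3 and PSME3. The antioxidant response element core, TGANNNNGC, which NFE2L1 and NFE2L2 read, was in 24 (57.1%, against 42.1%). A core of C/EBP sites, TTGCNNAA, was in PSMB4, PSMB5 and PSMD5 (7.14%, against 10.6%), and the C/EBP-ATF composite core, TGATGNAAT, was in 0 of the 42 and in 1.02% of all promoters.

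Of the 5 immunoproteasome and PA28 genes, PSMB10 lies by itself on chromosome 16 (67934506 to 67936850). On chromosome 6, PSMB9 (32854192 to 32859851) starts 487 bases from TAP1, which encodes a peptide transporter, and PSMB8 (32840717 to 32844679) lies in the same part of the MHC class II region. PSME1 (24136194 to 24138962) and PSME2 (24143365 to 24146610) lie close together on chromosome 14, with 4402 bases between them. TAP1 was at 1.21 and 1.47 FPKM under sh-NC and at 3.84 and 4.17 FPKM under sh-CEBPG#3. Its log2 fold change of 1.10 (adjusted p = 5.32e-05) stood beside 0.37 for PSMB9.

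Other genes of antigen processing and of the interferon response were taken from a list, of which 9 are reported. Of these, 5 were higher and 0 lower at an adjusted p under 0.05 in limma, and 7 had an unadjusted p under 0.05. Their median log2 fold change was 0.38. Of all genes tested 18.5% were higher, 23.8% were lower and 50.6% had an unadjusted p under 0.05, with a median of -0.038. UBE2L6, the conjugating enzyme of the ubiquitin-like protein ISG15, was at 8.07 and 8.22 FPKM in sh-NC and at 34.6 and 34.4 FPKM in sh-CEBPG#3 (log2 fold change 1.96, adjusted p = 7.88e-08). B2M, the light chain of MHC class I, was at 283 and 298 against 652 and 632 FPKM (1.14, adjusted p = 1.41e-06). TAP1, TAPBP and NLRC5 were the others that rose, and the call of NLRC5 was lost with any of the 4 libraries left out (adjusted p = 0.0583 to 0.143). Each of the 5 immunoproteasome and PA28 genes had a smaller log2 fold change than UBE2L6, B2M, TAP1 and TAPBP. The others of the list lay below PSME1 (0.41). These were TAP2 (0.38), NLRC5 (0.26), ERAP1 (0.18), IRF1 (0.12) and ERAP2 (-0.16), and TAP2, ERAP1 and ERAP2 were not called. IRF1, a transcription factor known to drive immunoproteasome genes, was at 8.59 and 8.38 against 9.36 and 9.29 FPKM (0.12, adjusted p = 0.265).

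**Figure D4:**
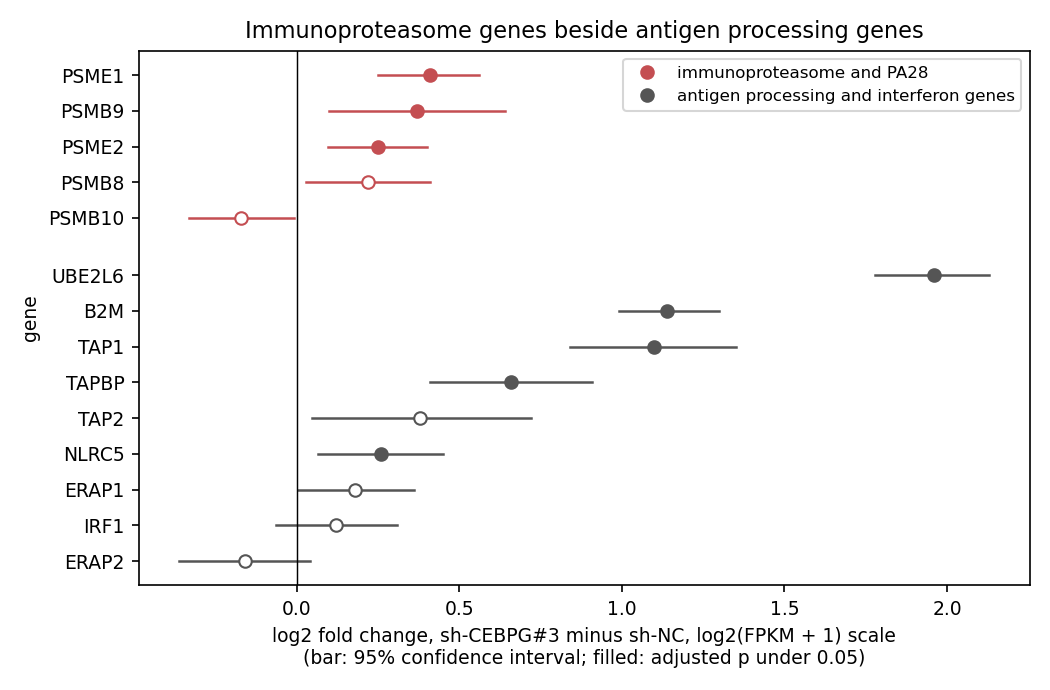
Log2 fold change (sh-CEBPG#3 minus sh-NC, log2(FPKM + 1) scale) with its 95% confidence interval for the 5 immunoproteasome and PA28 genes (red) and for 9 antigen processing and interferon genes (grey); filled points had an adjusted p under 0.05 in limma. UBE2L6 (1.96) and B2M (1.14) lie far above PSME1 (0.41), and PSMB10 (-0.17) lies below 0.

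In the alpha ring, the gate of the core, 1 of 7 genes was higher, 1 was lower and 5 did not pass. By comparison, 18.5% of all genes tested were higher and 23.8% lower. PSMA1 was at 92.4 and 95 FPKM in sh-NC and at 105 and 109 FPKM in sh-CEBPG#3 (log2 fold change 0.19, adjusted p = 0.0476). PSMA7 was at 101 and 106 against 89.3 and 86.6 FPKM (-0.23, adjusted p = 0.0209) and was the only one of the 31 constitutive subunits with a PSM symbol that fell. Its adjusted p was 0.118 or 0.189 without the first or second sh-CEBPG#3 library. The other 5 lay between -0.012 (PSMA2) and 0.14 (PSMA3).

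Among the 4 beta subunits without a cutting site, PSMB2 was higher and 3 did not pass (18.5% of all genes tested were higher). PSMB2 was at 20 and 23.2 against 25.8 and 25.6 FPKM (log2 fold change 0.24, adjusted p = 0.045). PSMB3 stood out by its level: it was listed at 0.901 and 4.4 FPKM in sh-NC and at 1.19 and 0.382 FPKM in sh-CEBPG#3, while the other 3 had sh-NC means of 21.6 to 211 FPKM. Only 1 of its 3 listed transcripts carried values, so these numbers do not give the level of the gene. The groups overlapped, and the log2 fold change of -0.88 had an interval from -1.74 to -0.017 (adjusted p = 0.093). It was -1.63 without the first and -0.13 without the second sh-NC library. PSMB4, at 202 and 220 against 222 and 223 FPKM, was the most abundant of the 48 genes (log2 fold change 0.078, adjusted p = 0.406).

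The value of PSMB5 was the sum of 3 transcripts, whose shares differed between the libraries. NM_002797 was at 32 and 16.4 FPKM under sh-NC and at 45.7 and 44.9 FPKM under sh-CEBPG#3. NM_001144932 was at 2.28 and 14.3 against 1 and 0.286 FPKM, and NM_001130725 at 0.805 and 9.52 against 0.0771 and 0 FPKM. The second sh-NC library thus gave much of the gene to the minor transcripts. Its sum over transcripts was 40.2 FPKM, against 35.1 FPKM in the first sh-NC library. With the most abundant transcript in place of the sum, the log2 fold change of PSMB5 was 0.95 (adjusted p = 0.0795) and the difference in the PSMB8 to PSMB5 ratio -0.74. These minor transcripts of PSMB5 were the only 2 of the 97 member transcripts with values that differed by more than 1 on the log2 scale between the groups. Of the 48 members, 21 had 1 transcript with values, and in 19 of the other 27 a single transcript held at least 90% of the gene.

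**Figure D5:**
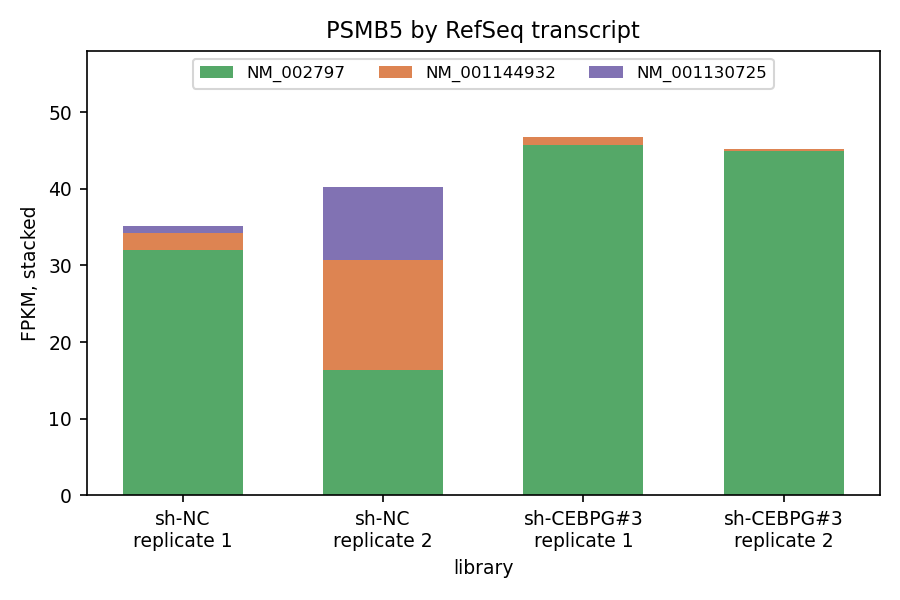
FPKM of the 3 RefSeq transcripts of PSMB5, stacked, in each of the 4 libraries. The second sh-NC library has 14.3 FPKM of NM_001144932 and 9.52 FPKM of NM_001130725, both above their levels in the other 3 libraries, while its sum of 40.2 FPKM lies between those of the others.

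The 6 ATPases of the cap base unfold the substrate. PSMC2 alone of them passed the test: it was at 20.5 and 20.5 FPKM in sh-NC and at 24 and 26.1 FPKM in sh-CEBPG#3, a log2 fold change of 0.28 (95% confidence interval 0.10 to 0.45, adjusted p = 0.0177). The adjusted p was 0.154 without the second sh-CEBPG#3 library. PSMC5 was at 66.4 and 72.6 against 62.1 and 64.9 FPKM, the largest decrease of the role (-0.13, adjusted p = 0.201). PSMC1, PSMC3, PSMC4 and PSMC6 lay between -0.13 and 0.15. In this role 1 of 6 genes was higher and 0 lower, against 18.5% and 23.8% of all genes tested.

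Of the 11 other cap subunits 2 were higher and 9 did not pass, where 18.5% of all genes tested were higher. PSMD2, a scaffold that binds ubiquitin shuttles, was at 38 and 42 against 45.9 and 47.8 FPKM (log2 fold change 0.22, adjusted p = 0.0415). PSMD8, a lid subunit, was at 71.5 and 75 against 85 and 82.6 FPKM (0.19, adjusted p = 0.0496). PSMD4, a ubiquitin receptor, was at 113 and 116 against 109 and 107 FPKM and had the most negative value (-0.09, adjusted p = 0.311). PSMD14, the deubiquitinase of the lid, was at 96.7% of its control mean (-0.047, adjusted p = 0.64). The 11 intervals together ran from -0.24 to 0.40.

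Of the chaperones that build the core, 1 of 5 was lower and 4 did not pass, where 23.8% of all genes tested were lower. PSMG1, which with PSMG2 starts the alpha ring, was at 31.5 and 32.5 FPKM in sh-NC and at 22.3 and 22.4 FPKM in sh-CEBPG#3. It fell to 69.7% of the control mean, a log2 fold change of -0.50 (95% confidence interval -0.67 to -0.34, adjusted p = 0.000481), and the call held in all 13 alternative settings. Its partner PSMG2 was at 32.2 and 40.3 against 36.2 and 36.6 FPKM, with overlapping groups (0.015, 95% confidence interval -0.21 to 0.24, adjusted p = 0.917). PSMG3 was at 87.4% of its control mean (-0.19, adjusted p = 0.0962).

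POMP, which brings the beta subunits together, was at 61.9 and 72.4 against 82.5 and 75.1 FPKM. Its log2 fold change of 0.23 (adjusted p = 0.0621) did not pass, and it did pass with quantile normalization, with equal totals, with a filter at 1 FPKM and without the second sh-NC library. Among the chaperones of the cap, PSMD5 was at 11.4 and 12 against 17 and 14.4 FPKM. It rose by 0.39 (95% confidence interval 0.18 to 0.60, limma adjusted p = 0.00842), the second largest increase of the 48 genes in the main setting. Without the first sh-CEBPG#3 library it was 0.28 (adjusted p = 0.0801). PSMD9, another of these chaperones, was at 14 and 16.7 against 13.8 and 13.6 FPKM (-0.14, adjusted p = 0.247), and PSMD10, also known as gankyrin, at 13 and 14.4 against 14.7 and 14.9 FPKM (0.11, adjusted p = 0.337).

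The other regulators of the core were of low or middle level. PSME4, the activator PA200 of nuclear proteasomes, was at 9.14 and 9.02 FPKM in sh-NC and at 11.3 and 10.5 FPKM in sh-CEBPG#3. It passed narrowly (log2 fold change 0.24, adjusted p = 0.0481). PSME3, the nuclear PA28 gamma, was at 41.3 and 45 against 47.7 and 46.3 FPKM (0.12, adjusted p = 0.224), and the inhibitor PSMF1 at 16.4 and 18.7 against 17.2 and 18.1 FPKM, with overlapping groups (0.0069, 95% confidence interval -0.19 to 0.20, adjusted p = 0.957). PSMC3IP, no part of the proteasome, was at 4.29 and 3.75 against 2.01 and 2.03 FPKM and fell by 0.73 on the log2 scale (adjusted p = 0.000504).

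Genes that work with the proteasome under other names gave a mixed picture. Of 9 cap subunits and partners, 1 was higher and 3 were lower, while 18.5% of all genes tested were higher and 23.8% lower. AKIRIN2, a nuclear import factor of proteasomes, rose (20 and 21.4 against 26.9 and 26.8 FPKM, log2 fold change 0.36, limma adjusted p = 0.00417). The largest decreases were in SEM1, the smallest lid subunit (86 and 93.6 against 57.6 and 58 FPKM, -0.63, adjusted p = 0.000115), and in USP14, a deubiquitinase bound to the cap (16.1 and 18 against 11.7 and 10.9 FPKM, -0.56, adjusted p = 0.000731). The third was UCHL5, another deubiquitinase of the cap, whose call was lost without the second sh-CEBPG#3 library (adjusted p = 0.0922).

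Among 4 genes that control proteasome transcription, 1 rose and 1 fell, while 18.5% of all genes tested were higher and 23.8% lower. NFE2L2, the antioxidant response factor, was at 15 and 15.1 against 28.8 and 26.1 FPKM (log2 fold change 0.82, adjusted p = 3.78e-05). NFE2L1, which drives proteasome genes when proteasome activity is low, was at 19.1 and 21 against 14.5 and 14.2 FPKM (-0.45, adjusted p = 0.00167). The other two, whose products process NFE2L1, did not pass.

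Of 10 ubiquitin genes, activating enzymes and shuttle factors that are reported, 3 were higher and 2 lower. Across all genes tested 18.5% were higher and 23.8% lower. RAD23B, a shuttle that carries ubiquitinated proteins to the cap, was at 36 and 37.9 against 44.2 and 43.3 FPKM (log2 fold change 0.24, adjusted p = 0.0235), and UBQLN2, another shuttle, at 3.41 and 3.79 against 6.76 and 6.27 FPKM (0.71, adjusted p = 0.000341). RPS27A, a fusion of ubiquitin and a ribosomal protein, was at 877 and 945 against 777 and 747 FPKM (-0.26, adjusted p = 0.0157), and UBB, a polyubiquitin gene, at 411 and 440 against 352 and 370 FPKM (-0.23, adjusted p = 0.0228). RAD23B lost its call without the first sh-NC library (adjusted p = 0.0603), and RAD23B (0.149 and 0.106), RPS27A (0.16 and 0.265) and UBB (0.283 and 0.15) all lost theirs without the first or second sh-CEBPG#3 library.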

How the data were processed

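RNA-seq had been run on 2 sh-NC and 2 sh-CEBPG#3 libraries of MV4-11 cells. The authors mapped filtered reads with HISAT (HISAT2 2.0.5 and hg38 in the submitters' processing notes) and deposited FPKM values per RefSeq transcript and library. The program that computed them and the annotation release are not given in the sources used here.

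Of 28780 transcripts 28581 had values, and these were summed by symbol to 16490 genes. FPKM totals were 364353 to 389766 per library. Among 1027 transcripts under 0.06 FPKM at most 1.27% shared a ratio between libraries, so no whole reads were recovered, depth is unknown and no count test was run.

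Genes averaging 0.5 FPKM or more (12142) were tested on log2(FPKM + 1), a scale that understates changes of low genes, with limma 3.58.1 in R 4.3.3 (lmFit, eBayes with a trend, no block) and Benjamini-Hochberg adjustment. The fit was tested on simulated data. Ratios within a library were tested by exact permutation, which cannot go below 0.333 here. The members, roles, gene lists and motifs were chosen with earlier results of these data known. Values per library are given for the immunoproteasome, PA28 and catalytic genes, POMP, PSME3, PSME4, PSMF1, and the largest increase and decrease of each other role. Of each partner list up to 2 largest increases and decreases are named. TAP1, TAP2, TAPBP, ERAP1, ERAP2, NLRC5, IRF1, UCHL5 and further members were named after their values were seen. Some genes of the lists and markers are not reported here, and list counts leave them out. Alternatives changed the pseudocount (0.1 or 0.01), the filter (none, or 1 FPKM), the scaling (quantile normalization or equal totals), the transcript taken (the most abundant), the trend, the replicate block and the libraries, each left out in turn.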

Additional observations from a re-analysis of the deposited data

How the results depend on the processing

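PSME1, PSMG1 and PSMC3IP were called in all 13 alternative settings, and the 14 called members kept their sign in each. Members higher numbered 4 with no filter, 2 with the most abundant transcript, 4 without a trend and 4 under a replicate block, against 11 (2 to 15 over the libraries left out). In those settings 8.33%, 4.17%, 8.33% and 8.33% of the members were higher, against 11.3%, 11.1%, 17.3% and 17.2% of all genes, so that the members' share lay below that of all genes and not above it. Members lower numbered 7 with quantile normalization and 8 with equal totals, against 3 (2 to 7 over the libraries left out). With a pseudocount of 0.1, 1 member (PSMB3) passed the threshold of the study (0 to 1 over the libraries left out). Same-numbered libraries deviated together by a correlation of only 0.0606, so the numbers were not taken as pairs. Under the block 3 members were lower: PSMC3IP, PSMG1 and PSMB3 (adjusted p = 6.14e-08), while PSMA7 was not called (adjusted p = 0.113). The standard error of PSMB3 was 0.15 under the block and 0.39 in the main setting, although its groups overlapped. With 4 libraries the block leaves little to estimate the spread of a single gene from. The p-value of PSMB3 under the block therefore does not measure its own spread. Where a library was dropped, the 1 left was assumed to vary like the other group.

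Changes of sign touched 13 members, none of them called. With quantile normalization the log2 fold change was -0.053 for PSMA4, -0.061 for PSMA6, -0.018 for PSMB4, 0.0012 for PSMC1, -0.027 for PSMD13, -0.032 for PSMD3 and -0.014 for PSMD7. With equal totals it was -0.0032 for PSMA4, -0.0068 for PSMA6, -0.015 for PSMD11, -0.014 for PSMD13, -0.022 for PSMD3, -0.01 for PSMD7, -0.018 for PSMF1 and -0.01 for PSMG2. With the most abundant transcript it was -0.16 for PSMD11 and -0.00076 for PSMD6. With each library left out in turn it ran from -0.084 to 0.06 for PSMA2, -0.078 to 0.12 for PSMA4, -0.081 to 0.12 for PSMA6, -0.092 to 0.039 for PSMC1, -0.092 to 0.06 for PSMD1, -0.038 to 0.058 for PSMD11, -0.013 to 0.036 for PSMD13, -0.087 to 0.094 for PSMD3, -0.081 to 0.11 for PSMD7, -0.079 to 0.093 for PSMF1 and -0.14 to 0.17 for PSMG2. The cause was not tested. The number of reads behind a value is unknown, so no detection limit is given.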
